A study of Mus musculus with 24 samples.

Results

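RNA of the retinal pigment epithelium (RPE) of mice killed 9 h after light onset was compared with RNA of mice killed at light onset (0 h). The comparison took 6 of the 24 libraries of the series, chosen by their time labels, with 3 mice at each of the times. All animals were wild-type mice of the strain 129S1/SvlmJ with the Leu450 form of Rpe65, kept on a standard diet under a cycle with 12 h of light. No agent was given in either group, and light onset was at 7 am. Age and sex were not analysed here. The labels name the replicates as biological ones, so p-values measure the spread between mice. The question was which genes of the RPE differed between the start and the later part of the light phase, and which differences ran with RNA of photoreceptors in the same libraries.

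The RPE is a single layer of pigmented cells behind the photoreceptors. It recycles the visual chromophore, moves ions, water and nutrients between the choroid and the retina, and takes up and digests the tips of outer segments, which rods shed in a daily burst soon after light onset. Like most cells it holds a circadian clock, in which ARNTL (BMAL1) with CLOCK or NPAS2 switches on the Per, Cry and Nr1d genes, whose proteins in turn hold that pair down.

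Total counts ran from 14718683 to 16779358 in the 6 libraries, and 18388 genes passed the filter on low counts. Mice are named by time and number, as in 0 h mouse 1. Rpe65, the isomerase of the visual cycle, stood at 4784, 4423 and 3928 CPM (counts rescaled so that libraries of different depth compare) at 0 h and at 4275, 4167 and 4590 CPM at 9 h, and the summed level of the 25 visual cycle and RPE genes was 44940 to 51890 CPM at 0 h and 48360 to 53320 CPM at 9 h. Among RPE markers Best1, a chloride channel, was low, at 2.97 to 5.07 CPM at 0 h and 3.91 to 4.95 CPM at 9 h. Mitochondria-encoded transcripts took 5.06% to 6.81% of counts at 0 h and 5.14% to 6.47% at 9 h. The third mouse of 6 h and the third mouse of 15 h stood apart in an earlier analysis of these data and did not enter the fit. In the latter, mitochondria-encoded transcripts held 0.837% of counts, and ribosomal protein genes 4.2%, against 4.06% and 1.24% in the first mouse of that time.

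At 9 h, genes of the negative arm of the clock and several growth factor response genes stood higher, and Arntl and its partners, RNA of photoreceptors, the matrix gene Thbs1 and several chaperone genes stood lower. At an adjusted p under 0.05 in edgeR's quasi-likelihood test, 1489 of 18388 genes differed (8.1%), of which 664 rose (3.61%) and 825 fell (4.49%). Most changes were small, and 226 of the 1489 genes changed by more than 2-fold, 68 upward and 158 downward. The median log2 fold change of all genes tested was 0.01. The genes that fell were longer than the rest, with a median length of 5909 bases against 3749 for those that rose and 3762 for all tested.

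The number of genes called rested on single mice. It was 728 without 0 h mouse 1, 709 without 0 h mouse 2 and 660 without 9 h mouse 1, the count of rising genes was 1035 without 0 h mouse 3 and 418 without 9 h mouse 2, and 469 of the 1489 genes (31.5%) were called in all 6 fits that each left out 1 of these mice. With the third mice of 6 h and 15 h in the fit 135 genes were called, 44 higher and 91 lower, and all 135 were among the 1489. Of the 165 called genes that the naming rule takes, 42 kept their call there, 123 lost it and none changed sign.

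Photoreceptor RNA was lower at 9 h in all 3 mice. The rod marker level, taken as the mean log2 CPM of 26 rod genes, was 6.86, 6.31 and 6.25 in the mice of 0 h and 3.90, 5.14 and 3.92 in those of 9 h. The groups did not overlap, 9 h mouse 2 lay closest to the 0 h mice, and the difference of means was -2.16 on the log2 scale. An exact two-sided permutation test gave p = 0.1, the smallest that 3 against 3 mice allow (0.22 after adjustment over 11 marker lists). The 26 genes summed to 5468 to 7379 CPM at 0 h and 2676 to 3463 CPM at 9 h. In the 16 libraries of the other times the level ran from 3.85 to 6.19, so all 3 mice of 0 h lay above every one of them. In bulk RNA such as this, fewer cells of a type and less RNA per cell cannot be told apart.

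**Figure D1:**
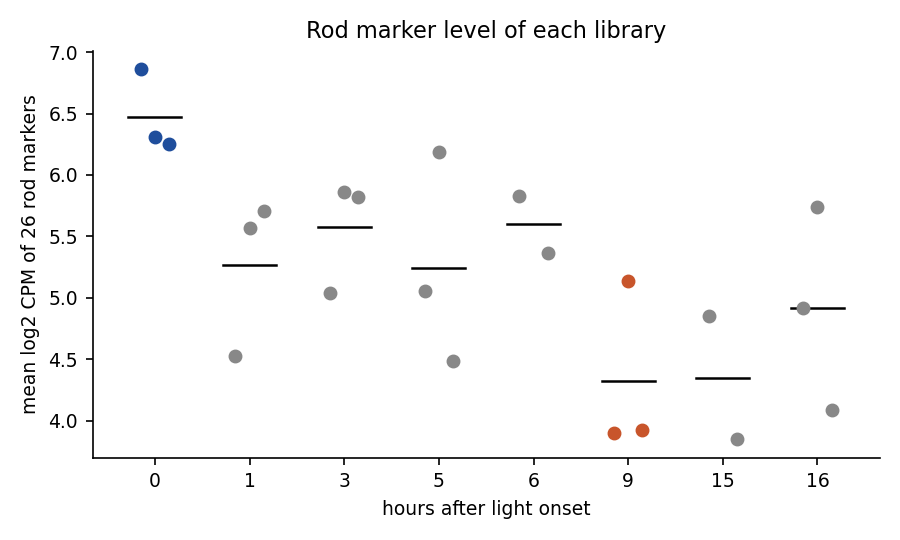
Rod marker level of each of 22 libraries (points, y axis: mean log2 CPM of 26 rod genes) by hours after light onset (x axis), with 0 h in blue, 9 h in orange, other times in grey and group means as black lines. The mice of 0 h lie between 6.25 and 6.86, above all others, and those of 9 h between 3.90 and 5.14.

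Rods turn light into an electrical signal through a visual pigment, the G protein transducin and a phosphodiesterase, and the genes counted here as rod markers are used by rods. Of the 26 rod markers 20 fell and none rose, next to 4.49% and 3.61% of all genes. Their median log2 fold change was -2.33, against 0.01 for all genes tested. Rcvrn, the calcium sensor recoverin, went from 80.4, 44.5 and 49.9 CPM to 4.34, 12.2 and 5.01 CPM. Every mouse of 0 h lay above every mouse of 9 h, and the change was -3.01 on the log2 scale (SE 0.66, adjusted p = 0.0125).

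The fall was of like size in other rod genes, with 25 of the 26 not overlapping between the groups, against 13.6% of all genes tested in that direction. Nr2e3, a transcription factor that keeps cone genes off in rods, changed by -2.90 (SE 0.72, adjusted p = 0.0248), and Pde6a, which encodes the alpha chain of the phosphodiesterase, by -2.75 (SE 0.66, adjusted p = 0.0203). In Rcvrn, Nr2e3 and Pde6a, 9 h mouse 2 was the highest of its group.

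Most of these calls depended on single mice. Of the 20 rod markers 1 was called in all 6 fits without 1 mouse, and 3 with the third mice of 6 h and 15 h in the fit. Rcvrn lost its call without 9 h mouse 1 (adjusted p = 0.0683). Nr2e3 lost it without 0 h mouse 1 (0.0793), 0 h mouse 2 (0.0528), 9 h mouse 1 (0.112) or 9 h mouse 3 (0.081), and Pde6a without 0 h mouse 1 (0.0743), 9 h mouse 1 (0.0964) or 9 h mouse 3 (0.0703).

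Genes that moved with rod RNA were found in libraries that this comparison does not use. In the 16 libraries of 1, 3, 5, 6, 15 and 16 h, each gene was fitted with a mean per time and a slope on the rod marker level, in log2 units per log2 unit. A positive slope passed the test in 166 of 18055 genes (0.919%), and no negative slope did. Of these 166 genes, 71 fell between 0 h and 9 h, none rose and 95 were not called, whereas 4.49% of all genes tested fell. They include 22 of the 26 rod markers, which make up the level, and 4 of 12 cone markers, and 53 of the 71 that fell are neither.

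Among the 71 falling genes the median slope was 1.08 and the median log2 fold change -2.39, next to a median of -2.34 for slope times the rod level difference. With the rod level of each library as a covariate, the median change of these 71 genes was -0.18 and none remained called. Genes that followed the rod level were chosen by slopes in libraries that this fit also holds. Their smaller change there is therefore no test of them, and the rod markers also make up the covariate. In that fit the median was positive in the 95 genes that were not called, at 0.43, and over all 166, at 0.18. In the 753 falling genes whose slope was not called, the median slope was 0.01, and the median change was -0.41 without and -0.38 with the covariate. In the 663 rising genes with a slope the medians were 0.47 and 0.41. A slope above 0.5 was nevertheless found in 21 of the 753 falling genes, all under 5 CPM at 0 h, and in no rising gene, so an uncalled slope does not set a low gene apart from rod RNA. The covariate fit called 189 genes, 63 higher (0.343%) and 126 lower (0.685%), and 184 of them were among the 1489. Of the 165 called genes that the naming rule takes, 33 kept their call with the covariate, 131 lost it and 1 changed sign. Since every mouse of 0 h had a higher rod level than every mouse of 9 h, rod level and time cannot be told apart fully in that fit. The number was 97 without 0 h mouse 2, 301 without 0 h mouse 3, 40 without 9 h mouse 2, and 6 with the third mice of 6 h and 15 h.

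**Figure D2:**
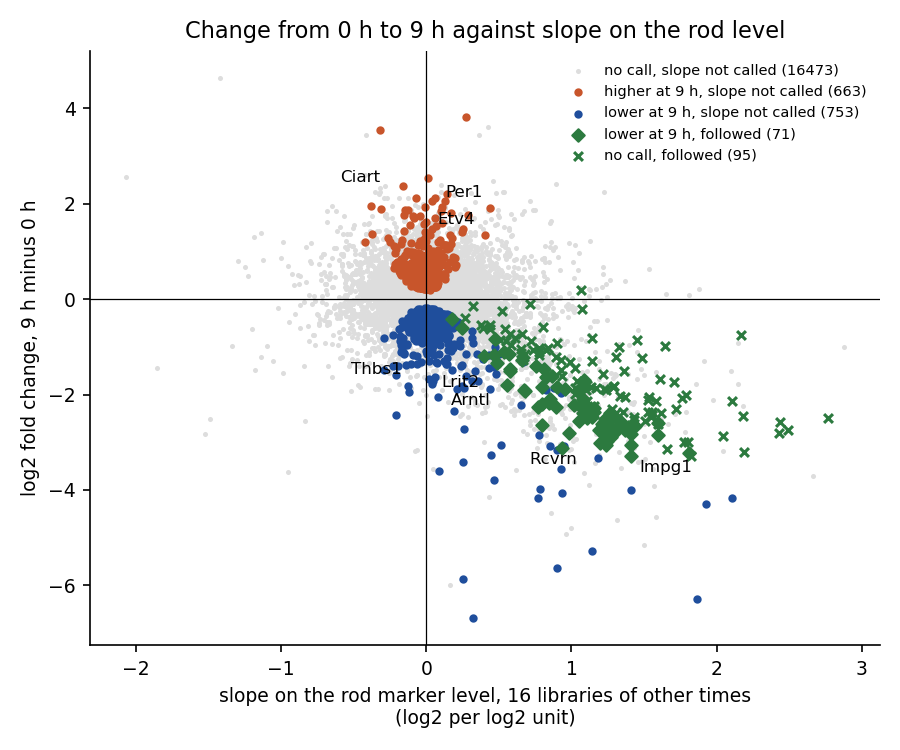
Log2 fold change from 0 h to 9 h (y axis) against the slope on the rod marker level in 16 libraries of other times (x axis, log2 per log2 unit) for 18055 genes, coloured by call and by whether the slope was called. The 71 falling genes that followed the rod level (green diamonds) lie at slopes around 1, whereas Per1, Ciart, Etv4, Thbs1 and Arntl lie at slopes near 0.

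The genes that followed the rod level and fell furthest included photoreceptor genes outside the marker list. Impg1, a proteoglycan of the matrix around photoreceptors, stood at 28.6, 14.05 and 18 CPM at 0 h and at 1.28, 2.77 and 2.15 CPM at 9 h, without overlap, a change of -3.28 (SE 0.72, adjusted p = 0.0128). Its slope was 1.41, and its change with the rod covariate was -0.52 (SE 0.35, adjusted p = 0.616). Drd4, a dopamine receptor that photoreceptors express with a strong daily rhythm, stood at 18.2, 16.1 and 14.9 CPM against 1.15, 3.25 and 1.49 CPM, a change of -3.05 (SE 0.66, adjusted p = 0.0119), with a slope of 1.24 and a change of -0.68 (adjusted p = 0.41) with the covariate. The call of both genes ended without 9 h mouse 1 (adjusted p = 0.0703 for Impg1 and 0.0669 for Drd4). Neurod1, a transcription factor of photoreceptors and amacrine cells, fell by 2.98 on the log2 scale (SE 0.71, adjusted p = 0.0195), but not without 0 h mouse 1 (adjusted p = 0.0688), 9 h mouse 1 (0.0936) or 9 h mouse 3 (0.0687).

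Sag, the rod arrestin, was among the 6 of 26 rod markers that were not called. It was at 209, 145 and 142 CPM at 0 h and at 29.2, 82.8 and 26.2 CPM at 9 h, without overlap, but the change of -1.85 (SE 0.68) did not pass the test (adjusted p = 0.114). Its slope was 1.28, close to the 1.2 of Rcvrn, and the covariate fit gave 0.71 in the other direction (SE 0.12). Sag is among the 26 genes whose mean is the rod level, so neither its slope nor the covariate fit is a test of it.

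Some cone and inner retina markers fell as well. Of 12 cone markers 3 fell, with a median log2 fold change of -1.01, and of 21 inner retina and Mueller glia markers 2 fell, with a median of -0.24. Among all genes 4.49% fell. Gnb3, a transducin subunit of cones, stood at 14.0, 14.6 and 16.9 CPM at 0 h and at 3.06, 4.82 and 2.03 CPM at 9 h (log2 change -2.19, SE 0.47, adjusted p = 0.00927). Its slope on the rod level was called, at 0.80. Opn1mw, the middle wavelength cone opsin, stood at 4.01, 1.76 and 3.19 CPM against 0.319, 0.602 and 0.418 CPM (-2.72, SE 0.46, adjusted p = 0.000510), with a slope of 0.26 that was not called. Both genes separated the groups and were called in all 6 fits without 1 mouse.

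Most core clock genes differed. Of 25 genes tested 11 rose and 5 fell, next to 3.61% and 4.49% of all genes, none followed the rod level, and the median log2 fold change was 0.28. The rises were those of the Per genes, Ciart, Cry2, the PAR-domain factors Dbp, Tef and Hlf, Nr1d2, Bhlhe41 and Csnk1d, and the falls those of Arntl, Npas2, Clock, Nfil3 and Rorb.

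Per1 encodes a light- and hormone-inducible repressor of the clock (chromosome 11, 69095217 to 69109960, GRCm38). It stood at 33.3, 28.9 and 33.8 CPM at 0 h and at 117, 108 and 175 CPM at 9 h, a log2 change of 2.06 (SE 0.17, adjusted p = 1.59e-06). At other times Per1 stood at 118.5, 105.9 and 122.1 CPM at 1 h and at 44.1, 47.6 and 55.5 CPM at 3 h. Per2, its partner in the repressor complex, went from 23.04, 31.7 and 32.1 CPM to 90.9, 87.0 and 105 CPM (1.70, SE 0.11, adjusted p = 2.37e-09). Per3, a further paralog, went from 50.8, 53.4 and 58.2 CPM to 114, 119 and 123 CPM (1.13, SE 0.09, adjusted p = 1.96e-08). In all of these genes the lowest mouse of 9 h was well above the highest mouse of 0 h.

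Ciart, which encodes the repressor CHRONO, had the largest rise of the list. It stood at 5.90, 4.46 and 9.79 CPM at 0 h and at 47.0, 22.7 and 35.2 CPM at 9 h (2.37, SE 0.31, adjusted p = 0.000254). Dbp, an activator at D-box sites, was at 112, 169 and 217 CPM against 451, 359 and 381 CPM (1.26, SE 0.19, adjusted p = 0.00083), and 18% of its exonic bases are shared with Sphk2. Tef, a relative of Dbp, was at 279, 280 and 303 CPM against 525, 468 and 501 CPM (0.79, SE 0.06, adjusted p = 2e-08). None of these groups overlapped. Nr1d2 (0.65, SE 0.08, adjusted p = 5.93e-06), a repressor at RORE sites, Hlf (0.46, SE 0.07, adjusted p = 0.000303) and Cry2 (0.45, SE 0.08, adjusted p = 0.000519) rose by less.

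The positive arm moved the other way. Arntl (chromosome 7, 113207465 to 113314126) stood at 32.8, 27.8 and 26.2 CPM at 0 h and at 5.55, 8.43 and 6.92 CPM at 9 h, a log2 change of -2.05 (SE 0.14, adjusted p = 2.43e-09). Npas2 went from 11.3, 9.33 and 10.03 CPM to 3.25, 3.43 and 2.69 CPM (-1.71, SE 0.21, adjusted p = 8.77e-06), and Clock from 116, 106 and 95.8 CPM to 57.3, 62.5 and 66.1 CPM (-0.77, SE 0.09, adjusted p = 5.32e-06). In none of these genes did the groups overlap. Nfil3, a repressor at D-box sites, stood at 17.8, 12.6 and 10.7 CPM against 6.00, 8.07 and 4.89 CPM (-1.12, SE 0.23, adjusted p = 0.00443), and Rorb, an activator at RORE sites, changed by -0.49 (SE 0.10, adjusted p = 0.00396).

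Other clock genes were not called. Nr1d1 (REV-ERBa) stood at 120, 142 and 149 CPM at 0 h and at 211, 135 and 185 CPM at 9 h, with overlap (0.37, SE 0.15, adjusted p = 0.141). Cry1, a late repressor, was at 22.4, 18.04 and 21.0 CPM against 24.4, 25.4 and 26.5 CPM (0.31, SE 0.10, adjusted p = 0.0617), and its mean was higher still at 15 h, at 39.5 CPM. Bhlhe40 and Rora differed by -0.04 and -0.07. Bhlhe41 and Csnk1d rose by 0.28 (adjusted p = 0.00724) and 0.24 (adjusted p = 0.0465), but Bhlhe41 not without 9 h mouse 1 (adjusted p = 0.0554) or 9 h mouse 3 (0.0538), and Csnk1d not without 0 h mouse 1 (0.226), 0 h mouse 2 (0.199), 9 h mouse 1 (0.0739), 9 h mouse 2 (0.188) or 9 h mouse 3 (0.108).

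The other 14 of the 16 clock calls held in every fit without 1 mouse, and 9 of 16 held with the third mice of 6 h and 15 h. Those that ended there were Per3 (adjusted p = 0.0844), Nr1d2 (0.091), Hlf (0.104), Clock (0.143), Rorb (0.22), Csnk1d (0.366) and Bhlhe41 (0.469), each with a change of nearly the same size. With the rod level as a covariate 8 clock genes were called, and among those that were not, Ciart changed by 1.75 (adjusted p = 0.0544), Dbp by 1.06 (adjusted p = 0.0979) and Nfil3 by -1.15 (adjusted p = 0.135).

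**Figure D3:**
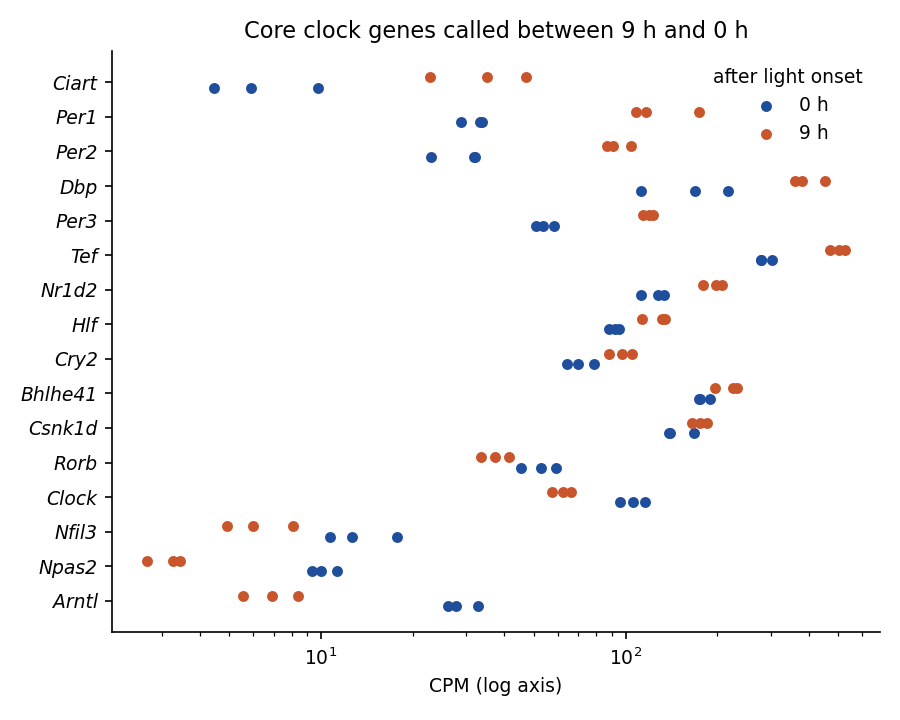
CPM (x axis, log scale) of the 16 core clock genes called between the times, with 1 point per mouse, 0 h in blue and 9 h in orange, in order of fold change. The groups lie well apart in Ciart, Per1, Per2, Npas2 and Arntl, and they overlap in Csnk1d.

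The clock proteins act through short DNA motifs, so RefSeq promoter windows (GRCm38.p6, 250 bases before to 50 bases after an annotated start) were searched on both strands for the E-box CACGTG, bound by ARNTL with CLOCK, the D-box TTATGTAA (or TTACATAA), bound by DBP, TEF, HLF and NFIL3, and the RORE core TAGGTCA (or TGACCTA), bound by the ROR and NR1D proteins. Of the 7 called clock genes with a match, 5 were picked after the matches were seen so that each motif is shown, with the match in capitals, and the windows of Bhlhe41 and Tef are left out. The windows are chr11:69098699-69098998 on the plus strand for Per1, chr3:95882179-95882478 on the minus strand for Ciart, chr4:151044616-151044915 on the minus strand for Per3, chr7:113207261-113207560 on the plus strand for Arntl and chr13:52980990-52981289 on the minus strand for Nfil3.
Per1: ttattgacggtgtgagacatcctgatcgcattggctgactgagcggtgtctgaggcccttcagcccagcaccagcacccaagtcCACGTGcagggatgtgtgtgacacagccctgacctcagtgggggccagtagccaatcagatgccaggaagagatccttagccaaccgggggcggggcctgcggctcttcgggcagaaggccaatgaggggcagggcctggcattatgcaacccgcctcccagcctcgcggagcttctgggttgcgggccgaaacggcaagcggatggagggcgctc
Ciart: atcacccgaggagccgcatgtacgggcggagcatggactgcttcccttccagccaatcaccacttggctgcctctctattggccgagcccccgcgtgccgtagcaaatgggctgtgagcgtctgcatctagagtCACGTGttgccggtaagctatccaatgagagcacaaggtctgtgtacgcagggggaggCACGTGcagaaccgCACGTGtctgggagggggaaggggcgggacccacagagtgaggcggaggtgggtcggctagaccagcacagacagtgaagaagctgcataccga
Per3: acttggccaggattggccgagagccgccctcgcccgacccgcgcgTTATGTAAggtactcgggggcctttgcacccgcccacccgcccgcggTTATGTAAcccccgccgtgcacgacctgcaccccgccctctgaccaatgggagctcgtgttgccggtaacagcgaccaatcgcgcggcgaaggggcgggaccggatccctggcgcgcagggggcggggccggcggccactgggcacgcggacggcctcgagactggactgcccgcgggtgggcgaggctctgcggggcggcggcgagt
Arntl: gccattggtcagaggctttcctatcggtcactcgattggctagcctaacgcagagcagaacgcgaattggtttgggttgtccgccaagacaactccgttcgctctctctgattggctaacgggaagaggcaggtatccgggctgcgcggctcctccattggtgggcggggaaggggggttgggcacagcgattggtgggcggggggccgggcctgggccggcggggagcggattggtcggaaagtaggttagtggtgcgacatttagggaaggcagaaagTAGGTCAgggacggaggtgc
Nfil3: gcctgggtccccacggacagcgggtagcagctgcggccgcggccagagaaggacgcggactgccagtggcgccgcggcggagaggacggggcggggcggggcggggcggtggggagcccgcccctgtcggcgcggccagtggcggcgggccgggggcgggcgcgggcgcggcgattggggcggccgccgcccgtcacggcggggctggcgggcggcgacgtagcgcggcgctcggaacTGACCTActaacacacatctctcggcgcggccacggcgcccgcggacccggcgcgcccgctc

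Per1 and Ciart, which rose, hold 1 and 3 E-boxes, Per3, which rose, holds 2 D-boxes, and Arntl and Nfil3, which fell, hold 1 RORE core each, read on the other strand in Nfil3. No window shown holds a match to another of the 3 motifs, so no matches overlap. Of the rising clock genes 9 have a window in the table, and an E-box was found in 4 of them (Bhlhe41, Ciart, Per1 and Tef), against none of 5 falling ones, 8.09% of all 27025 genes with a window and 11% of those that were tested. The RORE core was found in 2 of 5 falling clock genes, in none of the 9 rising ones, in 2.97% of all genes and in 2.28% of those tested. The D-box was found in Per3 and in Timeless, which was not called, and in 1.11% of all genes and 0.795% of those tested. Across all genes called, an E-box was found for 13.7% of those that rose and 13% of those that fell. A match describes these letters and shows no binding.

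Outside the lists, several signalling genes of at least 5 CPM rose. Cish, an inhibitor of cytokine receptors, went from 6.08, 11.8 and 9.03 CPM to 18.5, 31.7 and 29.2 CPM (1.57, SE 0.20, adjusted p = 3.75e-05), and 11.5% of its exonic bases are shared with predicted genes. Gdf3, a ligand of the TGF-beta family, went from 2.01, 2.84 and 1.77 CPM to 6.38, 12.8 and 5.07 CPM (1.88, SE 0.35, adjusted p = 0.00143). In both genes the groups were apart, and each was called without any 1 mouse, with the rod covariate and with the third mice of 6 h and 15 h. Rasd2, a small GTPase, rose by 1.61 (SE 0.24, adjusted p = 0.000166), and with the covariate its adjusted p was 0.0777. The rises of Lingo1, a neuronal receptor part (1.91, adjusted p = 0.0143), Hdc, the histamine-forming enzyme (1.77, adjusted p = 0.0427), and the processed pseudogene Gm14303 (1.71, adjusted p = 0.0104) were less stable. Lingo1 ended without 0 h mouse 1 (adjusted p = 0.0646), 0 h mouse 2 (0.0505) or 9 h mouse 1 (0.0581), Hdc without 0 h mouse 1 (0.157), 0 h mouse 2 (0.155) or 9 h mouse 3 (0.285), and Gm14303 without 0 h mouse 2 (0.0582).

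Thbs1 was the falling gene with the most RNA. It encodes thrombospondin-1, a secreted matrix protein that binds CD36 and CD47 (chromosome 2, 118111876 to 118127133), and stood at 2982, 2893 and 2464 CPM at 0 h and at 1079, 1109 and 1161 CPM at 9 h. The groups lay far apart, and the log2 change was -1.32 (SE 0.09, adjusted p = 2.43e-09). Its slope on the rod level was -0.03, and the change with the covariate was -1.35 (SE 0.14). Adcy1, a calcium-activated adenylyl cyclase, went from 177, 175 and 167 CPM to 68.6, 73.8 and 86.4 CPM (-1.18, SE 0.09, adjusted p = 3.44e-09), with -1.10 (SE 0.13) under the covariate. Both were called without any 1 mouse, but with the third mice of 6 h and 15 h in the fit Thbs1 had an adjusted p of 0.0732.

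Several genes of the retina were among the steepest falls although their slope on the rod level was not called. Lrit2, a leucine-rich repeat protein, stood at 114, 109 and 93.7 CPM against 24.9, 43.7 and 30.6 CPM (-1.67, SE 0.21, adjusted p = 0.000159), with a slope of 0.02. Ppef2, a phosphatase found in photoreceptors, went from 31.2, 27.8 and 23.3 CPM to 9.44, 10.5 and 9.55 CPM (-1.48, SE 0.17, adjusted p = 4.63e-06), with a slope of 0.18 and a change of -1.09 (SE 0.22, adjusted p = 0.0123) with the covariate. Kcnv2, a photoreceptor potassium channel subunit, went from 42.9, 34.1 and 30.2 CPM to 10.1, 15.0 and 14.0 CPM (-1.45, SE 0.29, adjusted p = 0.00624), with a slope of 0.43 (adjusted p = 0.12) and a change of -0.56 (SE 0.27, adjusted p = 0.449) with the covariate. The groups of all of these genes were apart.

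Less abundant transcripts also fell. Fam184b, with 20.9% of exonic bases shared with other genes, fell by 1.95 on the log2 scale (SE 0.23, adjusted p = 5.32e-06), Pcdhac2, a cadherin-like adhesion protein, by 1.37 (SE 0.14, adjusted p = 1.19e-06) and Ddit4l, a stress-induced inhibitor of mTOR signalling, by 1.37 (SE 0.24, adjusted p = 0.000814). Pcdhac2 shares its last exons with the other genes of its cluster, so its counts are uncertain (48.6% of its exonic bases), and with the third mice of 6 h and 15 h in the fit its adjusted p was 0.555. Sfn, a 14-3-3 protein of epithelia, fell by 1.89 (adjusted p = 0.039), but not without 0 h mouse 2 (0.154), 9 h mouse 1 (0.0505), 9 h mouse 2 (0.128) or 9 h mouse 3 (0.115).

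**Figure D4:**
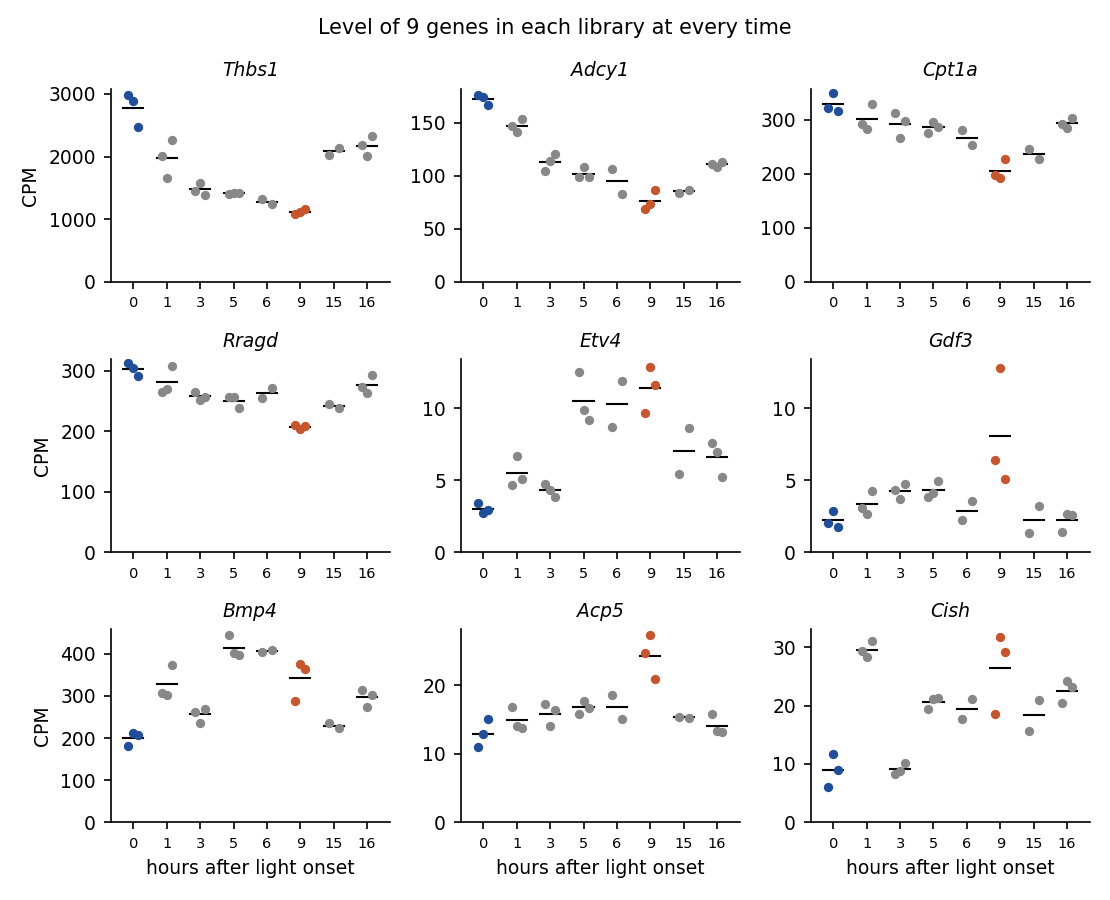
CPM (y axis, from 0) of 9 genes in each of 22 libraries by hours after light onset (x axis), with 0 h in blue, 9 h in orange, other times in grey and group means as black lines. Thbs1 and Adcy1 have their lowest means at 9 h and Etv4, Gdf3 and Acp5 their highest, whereas Bmp4 has its highest mean at 5 h and Cish at 1 h.

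Some targets of fibroblast growth factor signalling rose. FGF receptors act through ERK kinase, which raises the ETS factors ETV4 and ETV5 and the Sprouty inhibitors that damp the pathway. Of 22 genes 6 rose (Etv4, Etv5, Spry1, Spry2, Spry4 and Fgfr2) and Spry3 fell, next to 3.61% and 4.49% of all genes, with a median of 0.14. Etv4 stood at 3.40, 2.70 and 2.89 CPM at 0 h and at 9.70, 12.9 and 11.6 CPM at 9 h (1.92, SE 0.21, adjusted p = 3.58e-06). Etv5 stood at 78.5, 73.8 and 77.8 CPM against 114, 116 and 128 CPM (0.63, SE 0.07, adjusted p = 5.11e-06). Both separated the groups fully. Spry2 and Spry1 rose by 0.43 (adjusted p = 0.00375) and 0.41 (adjusted p = 0.00559). The calls of Etv4, Etv5, Spry1 and Spry2 held without any 1 mouse, and 2 of the 7 calls of the list, Etv4 and Etv5, held with the third mice of 6 h and 15 h. With the rod covariate Etv4 and Etv5 were again the only members called.

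Bone morphogenetic protein (BMP) genes changed in both directions. BMP ligands bind kinase receptors that raise the Id genes, and noggin (Nog) blocks the ligands. Bmp4 rose from 181, 212 and 207 CPM to 287, 375 and 365 CPM (0.78, SE 0.10, adjusted p = 1.24e-05). Nog rose from 141, 126 and 158 CPM to 242, 281 and 271 CPM (0.90, SE 0.16, adjusted p = 0.00223). No mouse of 9 h overlapped with those of 0 h in either. Of 24 genes these 2 rose, and Bmp2 (-0.27), Gdf11 (-0.30) and Id2 (-0.45) fell, next to 3.61% and 4.49% of all genes, with a median of -0.05 over the list. The rises held without any 1 mouse and with the third mice of 6 h and 15 h. With the rod covariate Bmp4 kept its call and Nog did not (adjusted p = 0.0994). The falls did not hold without single mice: Bmp2 and Gdf11 ended without 0 h mouse 2 (adjusted p = 0.089 and 0.0816) or 9 h mouse 1 (0.0505 and 0.0809), Bmp2 also without 0 h mouse 1 (0.0578) or 9 h mouse 3 (0.0621), and Id2 without 0 h mouse 1 (0.135), 0 h mouse 2 (0.122), 9 h mouse 1 (0.0673), 9 h mouse 2 (0.0753) or 9 h mouse 3 (0.0996).

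Of 32 Wnt genes 2 rose and 2 fell, shares near the 3.61% and 4.49% of all genes. Rspo2, a secreted enhancer of Wnt signalling, went from 16.5, 16.5 and 21.1 CPM to 6.32, 9.34 and 8.00 CPM (-1.19, SE 0.17, adjusted p = 0.000112), and Wnt5b, a ligand of the non-canonical branch, from 5.35, 5.61 and 4.48 CPM to 9.83, 8.49 and 9.49 CPM (0.85, SE 0.19, adjusted p = 0.00744). Both calls held without any 1 mouse, and neither pair of groups overlapped. Rspo2 was also called with the third mice of 6 h and 15 h and with the rod covariate, whereas Wnt5b was not (adjusted p = 0.229 and 0.49). Of 17 genes of retinoic acid synthesis, breakdown and reception none was called by edgeR or limma-voom and 1 by DESeq2, which called 1932 of all 18388 genes. An unadjusted p under 0.05 was found in 5, and its share over all genes is not given here.

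Several glucocorticoid targets rose. Corticosterone, the main glucocorticoid of mice, climbs through the light phase, and its receptor raises a known set of genes. Of 13 targets 5 rose (Per1, which also counts as a clock gene, Tsc22d3, Sgk1, Klf9 and Mt2) and none fell, next to 3.61% and 4.49% of all genes, with a median of 0.31. Tsc22d3 (GILZ, a mediator of glucocorticoid action) stood at 40.2, 42.6 and 50.8 CPM at 0 h and at 74.0, 83.1 and 109 CPM at 9 h (0.99, SE 0.15, adjusted p = 0.000662). Sgk1, a kinase that regulates ion channels, stood at 981, 1005 and 1018 CPM against 1240, 1353 and 1502 CPM (0.45, SE 0.08, adjusted p = 0.000534). Both separated the groups. At other times Tsc22d3 stood at 81.1, 97.0 and 81.6 CPM at 1 h and at 43.1, 48.2 and 44.7 CPM at 3 h. Whether the hormone took part in these rises was not tested. Mt2, a metallothionein, rose by 1.96 (SE 0.52, adjusted p = 0.0309), but 73.5% of its exonic bases are shared with another gene, and the call ended without 0 h mouse 1 (adjusted p = 0.129), 0 h mouse 2 (0.103), 9 h mouse 1 (0.0676) or 9 h mouse 2 (0.0884). With the third mice of 6 h and 15 h Per1 alone of the 5 kept its call, and likewise with the rod covariate. Of 25 immediate early genes 20 had a positive change (median 0.26), and 8 lay higher without overlap, next to 13.1% of all genes. Maff alone was called by edgeR (1.18, SE 0.22, adjusted p = 0.00163), though not with the third mice of 6 h and 15 h or the rod covariate. DESeq2 called 3 and limma-voom 2, next to 1932 and 1476 of all 18388 genes. An unadjusted p under 0.05 was found in 8, and its share over all genes is not given here. Fos differed by 0.00 (SE 0.33).

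**Figure D5:**
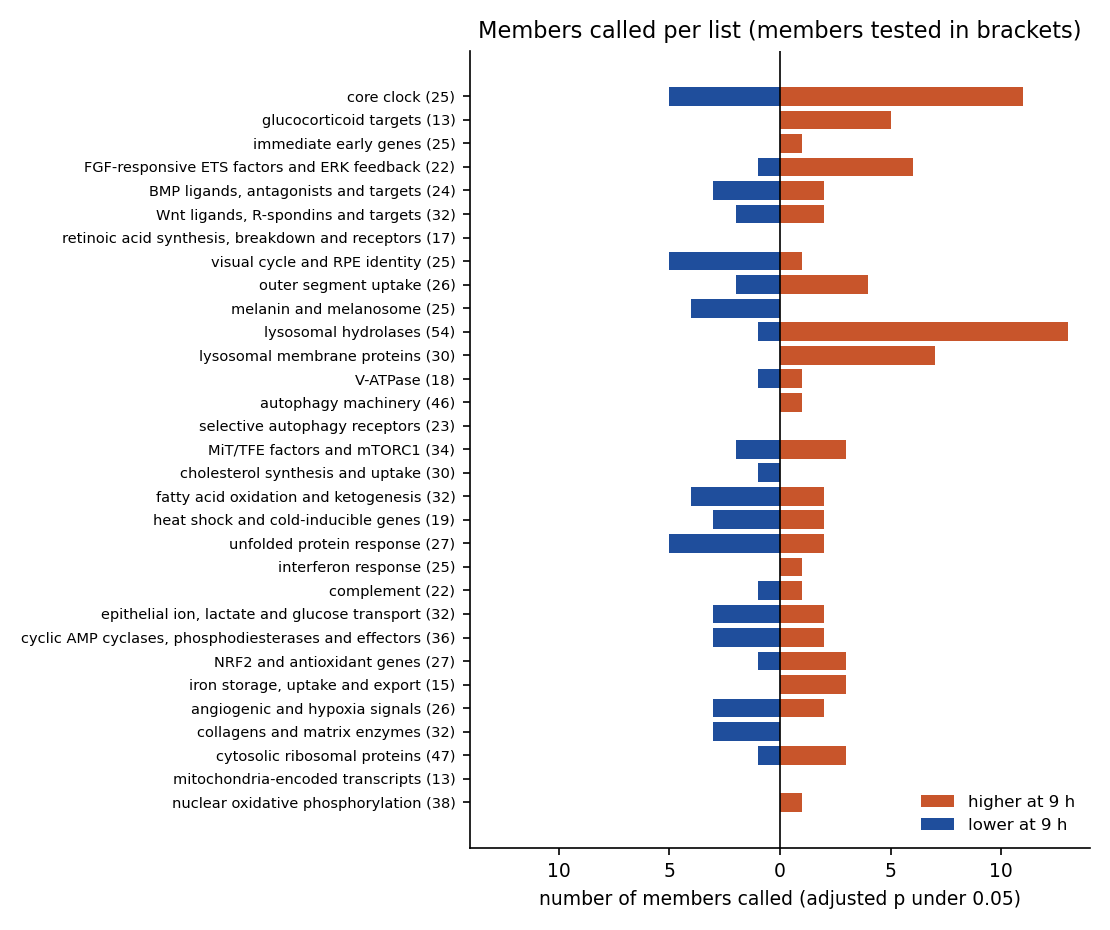
Number of members called higher (orange, to the right) and lower (blue, to the left) at 9 h for each gene list (y axis, members tested in brackets), without the marker lists of other cells. The core clock has 11 higher and 5 lower of 25, lysosomal hydrolases 13 higher and 1 lower of 54, and melanin genes 4 lower of 25.

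Genes of the RPE's own functions changed in both directions, with list medians near 0. Of 25 visual cycle and RPE identity genes 1 rose and 5 fell (median 0.04), next to 3.61% and 4.49% of all genes. Lrat, which esterifies retinol for storage, stood at 1313, 1377 and 1115 CPM at 0 h and at 1508, 2027 and 1923 CPM at 9 h (0.52, SE 0.11, adjusted p = 0.00375). Rdh11, a retinol dehydrogenase, stood at 229, 231 and 196 CPM against 125, 124 and 139 CPM (-0.76, SE 0.09, adjusted p = 1.01e-05). The groups of these genes lay apart, in opposite directions. Cdh3, the P-cadherin of RPE junctions, changed by -0.68 (SE 0.12, adjusted p = 0.00184). Lrat, Rdh11 and Cdh3 were called without any 1 mouse, and Rdh11 alone with the third mice of 6 h and 15 h. With the rod covariate Lrat and Rdh11 kept their calls and Cdh3 did not. Rpe65 (-0.01, SE 0.08, adjusted p = 0.954) and Rlbp1 (0.12, SE 0.08, adjusted p = 0.411), which carries 11-cis retinoids, did not pass the test.

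Of 26 genes of outer segment uptake 4 rose and 2 fell (median -0.02), next to 3.61% and 4.49% of all genes. Mfge8, a secreted bridge between shed membrane and the integrin receptor, went from 99.7, 95.4 and 103 CPM to 163, 142 and 136 CPM (0.57, SE 0.12, adjusted p = 0.00465). Lgals3, a galectin, went from 98.0, 98.4 and 110 CPM to 157, 132 and 148 CPM (0.52, SE 0.10, adjusted p = 0.00137). Both rises separated the groups and held without any 1 mouse. Neither was called with the third mice of 6 h and 15 h (adjusted p = 0.411 for Mfge8 and 0.599 for Lgals3) or with the rod covariate (0.18 and 0.121). Mertk, the receptor kinase that triggers engulfment, stood at 182, 200 and 197 CPM against 203, 213 and 222 CPM and was not called (0.14, SE 0.08, adjusted p = 0.279). Tub, a MERTK ligand that is also a photoreceptor gene, fell by 1.46 on the log2 scale (SE 0.30, adjusted p = 0.00705) but followed the rod level, with a slope of 0.57 and a change of -0.41 (adjusted p = 0.586) with the covariate.

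Melanin genes, which make and place the pigment granules, fell where they were called. Of 25 members 4 fell and none rose (median -0.07), next to 4.49% and 3.61% of all genes. Oca2, a melanosome anion channel, went from 385, 346 and 367 CPM to 277, 279 and 298 CPM (-0.36, SE 0.07, adjusted p = 0.00197). Rab27a, which tethers melanosomes to the motor, went from 417, 426 and 426 CPM to 325, 297 and 346 CPM (-0.39, SE 0.06, adjusted p = 0.000412). The groups of both were apart and the calls held without any 1 mouse and with the rod covariate. Tyr, the enzyme that starts melanin synthesis, and Gpr143, a melanosome receptor, fell by 0.34 and 0.37, but Tyr not without 0 h mouse 1 (adjusted p = 0.0564) or 9 h mouse 1 (0.0747), and Gpr143 not without 0 h mouse 2 (0.0602) or 9 h mouse 1 (0.0676). None of the 4 was called with the third mice of 6 h and 15 h.

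Several genes of lysosomal hydrolases and membrane proteins rose. Of 84 such genes 20 rose and Scpep1, a serine carboxypeptidase, fell, next to 3.61% and 4.49% of all genes, the rises being 13 of 54 hydrolases (median 0.10) and 7 of 30 membrane proteins (median 0.07). Acp5, an acid phosphatase, went from 10.9, 12.8 and 15.1 CPM to 24.8, 27.3 and 21.0 CPM (0.91, SE 0.14, adjusted p = 0.000159). Ctss, a cysteine protease, went from 176, 195 and 250 CPM to 321, 320 and 289 CPM (0.58, SE 0.12, adjusted p = 0.00556). Pld3, an exonuclease of the lysosome, went from 180, 214 and 217 CPM to 288, 268 and 280 CPM (0.45, SE 0.07, adjusted p = 0.000467). These and Ctsz, Tmem192 and Laptm5 were the 6 of the 21 called in every fit without 1 mouse, and none of the 21 was called with the third mice of 6 h and 15 h. With the rod covariate the medians were 0.01 for hydrolases and 0.03 for membrane proteins. In that fit Acp5 was called higher, 1 hydrolase was called lower and no membrane protein was called. Ctss, Pld3, Ctsz, Tmem192 and Laptm5 lost their calls there.

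Ctsd, the main aspartic protease of outer segment digestion, stood at 2460, 2886 and 2766 CPM at 0 h and at 3533, 3231 and 3332 CPM at 9 h, without overlap (0.32, SE 0.08, adjusted p = 0.0128). The call ended without 0 h mouse 1 (adjusted p = 0.0991) or 9 h mouse 1 (0.0812), and also with the rod covariate. A predicted gene shares 34.4% of its exonic bases. Lamp1, the most used marker of the lysosome membrane, differed by 0.09 (SE 0.07, adjusted p = 0.491). Of 18 genes of the V-ATPase, the proton pump that acidifies lysosomes, 1 rose and 1 fell (median 0.04), next to 3.61% and 4.49% of all genes. Atp6v1b2, a subunit of its cytosolic domain, fell by 0.30 on the log2 scale (SE 0.06, adjusted p = 0.00224), but not with the third mice of 6 h and 15 h (adjusted p = 0.0672) or the rod covariate (0.177). Atp6v0b, a subunit of its membrane domain, rose by 0.36 (SE 0.09, adjusted p = 0.0135), but not without 0 h mouse 1 (adjusted p = 0.091), 0 h mouse 2 (0.0752) or 9 h mouse 1 (0.082), and not in either of those fits.

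Some markers of immune cells rose as well. Of 23 macrophage, mast cell and other leukocyte markers 7 rose and 1 fell, next to 3.61% and 4.49% of all genes. The change was positive in 15 of 23, with a median of 0.24, and their summed level was 2525 to 3077 CPM at 0 h and 3084 to 3511 CPM at 9 h. Cd68, a lysosomal membrane protein of macrophages, went from 62.2, 67.6 and 74.5 CPM to 107, 89.2 and 103 CPM (0.55, SE 0.11, adjusted p = 0.00196), and Ms4a2, a chain of the IgE receptor of mast cells, from 1.34, 0.743 and 0.826 CPM to 3.00, 2.83 and 2.81 CPM (1.56, SE 0.34, adjusted p = 0.0058). Ptprc, the CD45 antigen of all leukocytes, differed by 0.07 (SE 0.17, adjusted p = 0.85). No marker was at 0 in all 6 mice. The part of these cells in the rise of lysosomal genes was not tested. Kit, a receptor of mast cells and melanocytes, was the marker that fell, from 85.5, 81.3 and 84.6 CPM to 37.6, 48.2 and 51.1 CPM (-0.88, SE 0.10, adjusted p = 5.32e-06). The calls of Cd68, Ms4a2 and Kit held without any 1 mouse, and of these Ms4a2 with the third mice of 6 h and 15 h. Of the whole list Kit alone was called with the rod covariate.

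Few autophagy genes passed the test. Of 46 genes of the autophagy machinery Gabarap rose (0.29, SE 0.07, adjusted p = 0.00964), though not without 0 h mouse 1 (adjusted p = 0.0508) or 0 h mouse 2 (0.0535), and none fell, with a median of 0.03. Among all genes 3.61% rose and 4.49% fell. Of 23 selective autophagy receptors none was called by edgeR or limma-voom and 1 by DESeq2, which called 1932 of all 18388 genes. An unadjusted p under 0.05 was found in 5, and its share over all genes is not given here. Optn, the receptor optineurin in the series' title, stood at 109, 125 and 109 CPM at 0 h and at 96.4, 93.2 and 107 CPM at 9 h. All mice of 9 h lay below those of 0 h by a small margin, and the change of -0.21 (SE 0.07) was not called (adjusted p = 0.0678). Map1lc3b, which encodes the membrane tag LC3B, differed by 0.06 (SE 0.06, adjusted p = 0.565).

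The MiT/TFE factors switch on lysosomal genes, and mTORC1, held at the lysosome by Rag GTPases, keeps them out of the nucleus when nutrients are plentiful. Of 34 genes of this group 3 rose (Flcn, Lamtor1 and Castor1) and 2 fell (median 0.02), next to 3.61% and 4.49% of all genes. Rragd, which encodes a Rag GTPase, stood at 313, 304 and 292 CPM at 0 h and at 210, 203 and 208 CPM at 9 h (-0.55, SE 0.07, adjusted p = 6.86e-06). Mtor, the kinase itself, stood at 153, 176 and 182 CPM against 115, 110 and 120 CPM (-0.57, SE 0.08, adjusted p = 0.000101). Both falls separated the groups and held without any 1 mouse, with the rod covariate and with the third mice of 6 h and 15 h. Tfeb stood at 28.9, 31.2 and 36.8 CPM against 43.6, 43.8 and 38.0 CPM, without overlap, and was not called (0.37, SE 0.12, adjusted p = 0.0607).

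Among metabolic genes Cpt1a, the gate of fatty acid entry into mitochondria, went from 323, 349 and 316 CPM to 199, 192 and 227 CPM (-0.68, SE 0.08, adjusted p = 5.32e-06). The groups did not overlap, and the call held without any 1 mouse, with the covariate and with the third mice of 6 h and 15 h. Of 32 genes of fatty acid oxidation and ketogenesis 2 rose and 4 fell (median 0.01), next to 3.61% and 4.49% of all genes. Of 30 genes of cholesterol synthesis and uptake Scap, the escort of the sterol sensor, fell (-0.32, SE 0.07, adjusted p = 0.00612) and none rose. Among 26 angiogenic and hypoxia genes Hif1a (-0.53, SE 0.08, adjusted p = 0.000329), the oxygen-sensing factor, and Vldlr (-0.57, SE 0.09, adjusted p = 0.000211), a lipoprotein receptor, fell in every fit without 1 mouse. Hif1a was also called with the rod covariate and with the third mice of 6 h and 15 h, and Vldlr and Scap in neither fit. Vegfa, the growth factor that maintains the choroid, rose by 0.32 (SE 0.08, adjusted p = 0.0181), but not without 0 h mouse 1 (adjusted p = 0.103), 0 h mouse 2 (0.0525) or 9 h mouse 2 (0.139).

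Several chaperone genes fell. Of 19 heat shock and cold-inducible genes 3 chaperones fell (Hsp90aa1, Hspa8 and Hspa4) and the cold-inducible Cirbp and Rbm3 rose, and of 27 genes of the unfolded protein response 5 fell and 2 rose, next to 4.49% and 3.61% of all genes. Hsp90aa1, the inducible cytosolic HSP90, went from 1455, 1395 and 1146 CPM to 876, 835 and 998 CPM (-0.56, SE 0.09, adjusted p = 0.000486). Hspa5, the chaperone BiP of the endoplasmic reticulum, went from 493, 486 and 441 CPM to 340, 397 and 352 CPM (-0.38, SE 0.07, adjusted p = 0.00131). The groups of both lay apart, and the calls held without any 1 mouse. Rbm3, an RNA-binding protein induced by mild cooling, rose by 0.40 (SE 0.08, adjusted p = 0.00256). Hsp90aa1 and Hspa4 were called with the third mice of 6 h and 15 h, and Hspa5 was not (adjusted p = 0.0908). Rbm3 was not called there either. With the rod covariate Hsp90aa1 kept its call, and Hspa4, Hspa5 and Rbm3 lost theirs.

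Among cyclic AMP genes, 2 of 36 rose, Adcy7 (0.59, adjusted p = 0.00142) and Pde4b (0.49, adjusted p = 0.00487), and 3 fell, led by Adcy1. With the rod covariate Adcy1 alone kept its call. For this list and the next ones, the shares over all genes are 3.61% higher and 4.49% lower. Of 32 transport genes 2 rose and 3 fell, of 27 NRF2 and antioxidant genes 3 rose and 1 fell, of 15 iron genes 3 rose, of 32 collagens and matrix enzymes 3 fell, and of 25 interferon response genes 1 rose, with 23 of 25 positive. Of 47 cytosolic ribosomal protein genes 43 had a positive change (median 0.15), and 3 rose and 1 fell. Of 13 mitochondria-encoded transcripts (median -0.25) none was called by edgeR or limma-voom and 1 by DESeq2, which called 1932 of all 18388 genes. An unadjusted p under 0.05 was found in 2, and its share over all genes is not given here. These libraries' ribosomal protein share of counts was 1.10% to 1.23% at 0 h and 1.22% to 1.34% at 9 h.

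RNA of other cells of the eye wall differed too. Choroid endothelium markers were positive in 16 of 16 genes (median 0.51), with a summed level of 768 to 1216 CPM at 0 h and 1068 to 1721 CPM at 9 h. None was called by edgeR or limma-voom and 2 by DESeq2, which called 1932 of all 18388 genes. An unadjusted p under 0.05 was found in 12, and its share over all genes is not given here. Skeletal muscle markers were negative in 12 of 12 genes (median -1.02), at 718 to 903 CPM against 240 to 639 CPM, and none was called by edgeR, DESeq2 or limma-voom, with 1 at an unadjusted p under 0.05. Their part in the differences above was not tested. Exact permutation tests of the mean marker level gave p = 0.2 for endothelium and p = 0.1 for muscle (adjusted 0.244 and 0.22), where 0.1 is the smallest possible.

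Times that shared no library with this comparison gave a second look at the genes called. Between 1 h and 5 h, in the same fit, 208 genes rose (1.13%) and 226 fell (1.23%). Of the 1489 genes, 773 (51.9%) had the same sign there, next to 46.8% of all genes. In the same direction 93 of them were called (6.25%), and in the opposite one 10. Over all 18388 genes tested these numbers were 293 (1.59%) and 141. The genes shared in direction included Arntl (-0.87, adjusted p = 0.00147), Npas2 (-0.91, adjusted p = 0.015), Per2 (0.67, adjusted p = 0.00152), Per3 (0.49, adjusted p = 0.00357), Ciart (1.25, adjusted p = 0.0382), Etv4 (0.94, adjusted p = 0.0134), Thbs1 (-0.49, adjusted p = 0.00419), Adcy1 (-0.53, adjusted p = 0.00144) and Rspo2 (-0.91, adjusted p = 0.00509). Cpt1a (-0.07), Rragd (-0.16), Acp5 (0.17) and Gdf3 (0.37) were not called between those times. Per1 did not rise there, at 118.5, 105.9 and 122.1 CPM at 1 h and 86.1, 104.4 and 113.9 CPM at 5 h. The count of 93 fell to 49 without 1 h mouse 1, 46 without 1 h mouse 2, 52 without 5 h mouse 1, 48 without 5 h mouse 2 and 58 without 5 h mouse 3. With the third mice of 6 h and 15 h in the fit it was 0.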

How the data were processed

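RNA-seq of mouse RPE was analysed from the table of raw counts of reads per gene that the authors deposited, with 1 column for each of 24 mice at 8 times. STAR, HTSeq and the build mm10 are named in the submitters' processing notes, while their settings and versions are not given in the sources used here. Libraries held 14073440 to 17492470 counts. The labels' protocols give a library kit (NEBNext Ultra) that does not mark strand, so reads of overlapping genes on opposite strands were not separable. Of 182 named genes 56 share exonic bases with another gene in GENCODE vM21 (GRCm38), which holds 54495 of the table's 54532 identifiers, and 22 share over 10%. Column names give the clock hour, and were matched to the labels with light onset at 7 am. No pair of the 6 libraries agreed within sampling noise (lowest chi-square per degree of freedom 8.25).

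Genes were filtered by filterByExpr (minimum count 10), which kept 18388 genes and 99.92% of counts. Scaling was by TMM, and edgeR 4.0.16 (R 4.3.3) fitted a robust quasi-likelihood model with a mean per time to 22 libraries, without the third mice of 6 h and 15 h. The contrast was 9 h minus 0 h, and p-values were adjusted by Benjamini-Hochberg over all genes tested. CPM are TMM-scaled, and log2 CPM use a prior count of 2. The rod slope and covariate fits used the same settings. Scripts were tested on simulated data. DESeq2 1.42.0 and limma-voom (limma 3.58.1) were alternatives, with RLE scaling, other filters, other sets of libraries, a replicate block and each mouse left out.

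Named genes are (a) the 12 largest rises and 12 largest falls of at least 5 CPM that did not follow the rod level and are no rod or cone markers, (b) the 6 largest rises and falls that followed it, (c) core clock genes, (d) up to 6 called members per list and (e) Optn, Tfeb, Ctsd, Lamp1, Map1lc3b, Rpe65, Rlbp1, Mertk and Sag. A few genes that the rule takes are not reported here. Best1, Fos, Ptprc, Scpep1 and Fgfr2 were named after their values were seen. So were Tpsab1, Il1rl1, Csf2rb2, Ctgf and Ptgs2, and Mcpt4 and Cyr61, also outside the rule, were added beside them. The comparison, the members and the gene lists were chosen with earlier results of these data known.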

Additional observations from a re-analysis of the deposited data

How the results depend on the processing

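Genes called between 9 h and 0 h numbered 1489 (664 higher, 825 lower). All 24 libraries gave 135 (44 and 91), the 6 libraries of 0 h and 9 h alone 908 (329 higher), no filter on low counts 2339 (1079 and 1260), the rod covariate 189 (63 and 126), and fits without 1 mouse 660 to 2047 (280 to 1035 and 375 to 1012). The higher share of calls was 44.6%, but 32.6% with all 24 libraries and 33.3% with the covariate. RLE scaling (1493), DESeq2 (1932), limma-voom (1476), a minimum count of 50 (1588) and a replicate block (1428) stayed within 1.5 times. Same-numbered mice deviated together by correlations of 0.086, -0.0012 and -0.0018, so numbers did not pair the mice. The 166 genes that followed the rod level became 96 with the third mice of 6 h and 15 h. The 189 genes of the covariate fit became 6 with all 24 libraries, 106 with a replicate block and 40 to 301 without 1 mouse. With the median of the markers, level differences were -0.083 for inner retina, 0.043 for red blood cells and, with the sign turned, 0.011 for fibroblasts and -0.31 for melanocytes. The 93 genes also called between 1 h and 5 h became 0 with all 24 libraries and 46 to 90 without 1 mouse. Signs turned for Aipl1 (0.0939), Lamp1 (-0.0111) and Sag (0.706) with the covariate, and for Rpe65 without 0 h mouse 1 (0.0474) or 9 h mouse 2 (0.00909), within a range of -0.0837 to 0.0474 over the fits without 1 mouse. The causes were not tested. Depth limits genes under 5 CPM, where all 21 falling genes with an uncalled slope above 0.5 lay.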

Other observations

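Tpsab1, Il1rl1 and Csf2rb2, genes expressed in mast cells and chosen after their values were seen, rose, whereas Kit, the receptor that mast cells share with melanocytes, fell (-0.88, adjusted p = 5.32e-06 in edgeR). Tpsab1, a mast cell tryptase, stood at 16.8, 20.9 and 17.9 CPM at 0 h and at 46.0, 36.9 and 44.6 CPM at 9 h (log2 change 1.2, SE 0.16, adjusted p = 8.3e-05 in edgeR). Il1rl1, the receptor of interleukin 33, stood at 2.43, 3.92 and 4.01 CPM against 9.00, 7.17 and 12.7 CPM (1.47, SE 0.29, adjusted p = 0.00223). Csf2rb2, a chain of the interleukin 3 receptor, stood at 5.04, 3.51 and 6.25 CPM against 11.4, 9.76 and 11.8 CPM (1.15, SE 0.24, adjusted p = 0.00358). The groups did not overlap in any of these genes, and their slopes on the rod level were 0.08, 0.04 and 0.17. Fits without single mice, with the rod covariate or with the third mice of 6 h and 15 h are not given for them. Mcpt4, a mast cell gene of the leukocyte marker list, was not called in edgeR.

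Ctgf and Ptgs2, which respond to growth factors and serum and were also chosen after their values were seen, rose. Ctgf, a matrix-associated growth factor partner, stood at 272, 271 and 243 CPM at 0 h and at 461, 505 and 560 CPM at 9 h (0.96, SE 0.14, adjusted p = 0.000297). Ptgs2, the inducible cyclooxygenase, stood at 3.28, 3.04 and 4.54 CPM against 7.59, 10.3 and 10.9 CPM (1.40, SE 0.23, adjusted p = 0.00043). Cyr61, a relative of Ctgf, overlapped between the groups and was not called (0.52, SE 0.24, adjusted p = 0.201). For these genes too, fits without single mice, with the rod covariate or with the third mice of 6 h and 15 h are not given.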
